A study of Homo sapiens with 13 samples.

Results

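The genes described are 48 genes of collagens, laminins, nidogens and proteoglycans, with the enzymes that process collagen, a few matrix glycoproteins and MXRA7. Each gene was represented by the probe set that names it alone in the platform annotation, and where there were several, by the one with the highest mean over the arrays. By that rule 45 of the 48 genes were measured, out of 11963 genes in all. COL12A1, COL17A1 and LAMA3 had no probe set naming them alone and were not analysed here.

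The 13 arrays measured RNA of human non-small cell lung carcinoma lines. M1, M4 and M5 are highly metastatic lines recovered from bone lesions of mice that had received control cells by injection into the heart, and each was measured on 3 arrays. The control cells were not metastatic, and 2 arrays held controls carrying luciferase and 2 held controls without it. Each line is 1 isolate, each array held RNA pooled from 3 groups of its cells, and the labels do not say whether the metastatic lines carried luciferase. The p-values therefore measure the spread between arrays of 1 isolate, which may be partly technical, and say nothing of other bone isolates.

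Collagens are secreted as triple helices: the fibrillar chains assemble into banded fibrils, whereas type IV chains form the sheet-like network of basement membranes. Laminins are heterotrimers of 1 alpha, 1 beta and 1 gamma chain that build the other basement membrane network, and nidogens and perlecan join the networks. Proteoglycans are proteins carrying sulphated sugar chains. Some are secreted, and syndecans and glypicans sit on the cell surface, where their heparan sulphate binds growth factors and matrix. In carcinomas much of the fibrillar collagen comes from fibroblasts, and the tumour cells themselves also make matrix.

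Values are log2 signals, and a difference of 1 is a doubling of the linear signal. Each comparison was tested with limma in a fit over all 13 arrays, and a gene was called where its p, adjusted by Benjamini and Hochberg's method over the 11963 genes, was under 0.05. Signals of different probe sets are not on 1 scale, so levels were not ranked between genes. The arrays also fall into 4 clusters by their 62 Affymetrix control probe sets, a grouping that no label names and that was made here without the gene values. Cluster 2 holds the second array of each control, M1 replicate 1, M4 replicate 1 and M5 replicate 1. Cluster 1 holds the first array of each control and M1 replicate 2, cluster 3 holds M1 replicate 3 and M4 replicates 2 and 3, and cluster 4 holds M5 replicates 2 and 3 alone. Over all genes, the nearest array came from the same cluster for 13 of 13 arrays and from the same group for 8 of 13, with the controls taken as 1 group. Calls were also made in a second fit with the cluster as a block. In it the M5 estimate rests on M5 replicate 1, because no other line or control lies in cluster 4.

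Keratins were high among the epithelial markers, and no marker of stroma, blood or endothelium was above the array median throughout. KRT7, KRT8, KRT18, KRT19 and ELF3 lay above the array median on all 13 arrays, as did the mesenchymal markers VIM, ZEB1, FN1 and S100A4. EPCAM, CDH1, ESRP1 and OCLN were below the lower quartile on all of them. Of 8 measured markers of fibroblasts and marrow stroma, 0 lay above the median throughout, and PDGFRA, FAP, TCF21 and POSTN were below the lower quartile on all arrays. The summed linear signal of these 8 ranged over 195.3 to 197.2 on M1 arrays, 178.8 to 208.4 on M4 arrays and 179.1 to 270.2 on M5 arrays, against 184.6 to 208.8 in controls. Below the lower quartile on every array were 3 of 6 blood cell markers, PTPRC, CD3E and LYZ, and 4 of 7 endothelial markers, CDH5, VWF, KDR and TIE1. The summed linear signal of the blood cell markers ranged over 104.5 to 112.8 in M1, 106.7 to 113.9 in M4 and 106.3 to 146.8 in M5, against 104.8 to 114.7 in controls. That of the endothelial markers was 156.4 to 187.4 in M5, against 161.6 to 172.8 in controls. The part of these sums in the M5 results was not tested. Human probe sets do not test for RNA of the mouse host.

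3 promoter sequences are printed, for MXRA7 and LAMC1, the members whose differences between lines were called under the most alternatives, and for the interval shared by COL4A1 and COL4A2, the head-to-head pair that codes for the main type IV chains. They are the RefSeq sequence (GRCh38.p14) before the transcription start, 5′ to 3′. Capitals mark matches to the GC box GGGCGG or the CCAAT box, searched on both strands without overlap between the 2 motifs. MXRA7 is chr17:76710966-76711215 on the minus strand, upstream of the outermost of its 3 listed starts. LAMC1 is chr1:183023170-183023419 on the plus strand. The COL4A1 and COL4A2 interval is chr13:110307158-110307283, written on the plus strand, towards COL4A2.
MXRA7: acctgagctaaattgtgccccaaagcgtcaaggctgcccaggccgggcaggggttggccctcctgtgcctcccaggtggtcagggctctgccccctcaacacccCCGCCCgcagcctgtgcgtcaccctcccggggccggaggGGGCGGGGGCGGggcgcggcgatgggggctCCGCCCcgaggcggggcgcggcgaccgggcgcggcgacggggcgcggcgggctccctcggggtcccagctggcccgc
LAMC1: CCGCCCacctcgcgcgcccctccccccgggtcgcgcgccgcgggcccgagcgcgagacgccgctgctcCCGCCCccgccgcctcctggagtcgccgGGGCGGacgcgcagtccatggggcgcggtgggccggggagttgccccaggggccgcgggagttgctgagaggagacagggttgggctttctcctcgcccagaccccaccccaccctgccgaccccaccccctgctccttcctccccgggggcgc
COL4A1 and COL4A2: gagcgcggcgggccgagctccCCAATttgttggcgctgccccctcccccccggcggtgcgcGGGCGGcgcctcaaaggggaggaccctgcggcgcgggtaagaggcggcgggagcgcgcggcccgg
MXRA7 has 4 GC box matches, LAMC1 has 3, and the COL4A1 and COL4A2 interval has 1 GC box and 1 CCAAT box match. In the 250 bases before 35116 promoters of the RefSeq table, 42.6% hold GGGCGG, 32% hold CCAAT and 10.7% hold TATAAA. In the nearest 126 bases, the length of the shared interval, the shares are 34.6%, 21.1% and 5.87%. TATAAA is in none of the 3 windows printed. A match is a description of the letters and was not tied to binding or to the signals below.

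Most members had similar means in lines and controls, and 4 had means over 1 apart. The means of M1, M4, M5 and the 2 kinds of control lay within 0.5 of each other for 35 of the 45 members, a range kept by 85.75% of all genes. The median range of these means was 0.33 over the members and 0.28 over all genes. The means lay over 1 apart for 4 members: MXRA7 with 2.04, COL3A1 with 1.72, THBS1 with 1.51 and SPOCK1 with 1.17. That is 4 of 45 members, beside 1.622% of all genes. On all 13 arrays 19 members lay above the array median, among them COL1A1, COL3A1, COL5A2, COL4A2, LAMC1, HSPG2, SDC1, GPC1 and FN1. COL11A1, COL15A1, COL6A3, LOX, NID1, GPC3, SPARC, VCAN and LUM were below the lower quartile on all 13, so that for these 9 a change at low signal could be missed.

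In the test of the mean of M1, M4 and M5 against controls, 0 of 45 members were called, beside 0.0251% of all genes; 8 members had an unadjusted p under 0.05, beside 8.16% of genes. With the cluster block SPOCK1 was called, beside 0.527% of genes. For M1 against controls 0 members were called, beside 0.0251% of genes; 3 had an unadjusted p under 0.05, beside 3.08%. With the block COL3A1 was called, beside 0.234%. For M4 against controls MXRA7 was called, beside 0.092% of genes, and 8 members had an unadjusted p under 0.05, beside 6.91%; with the block MXRA7 and SPOCK1 were called, beside 0.15%. For M5 against controls MXRA7 and AGRN were called, 2 of 45 members beside 2.37% of genes, and 0 with the block, beside 1.98%; 11 members had an unadjusted p under 0.05 without the block, beside 18% of genes. The arrays of a line and the controls did not overlap for 6 members in M1, beside 5.94% of genes, for 9 in M4, beside 11.4%, and for 8 in M5, beside 12.2%. The median member difference in M5 was -0.09, against 0.03 over all genes, and the medians in M1 and M4 lay within 0.01 of 0.

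**Figure D1:**
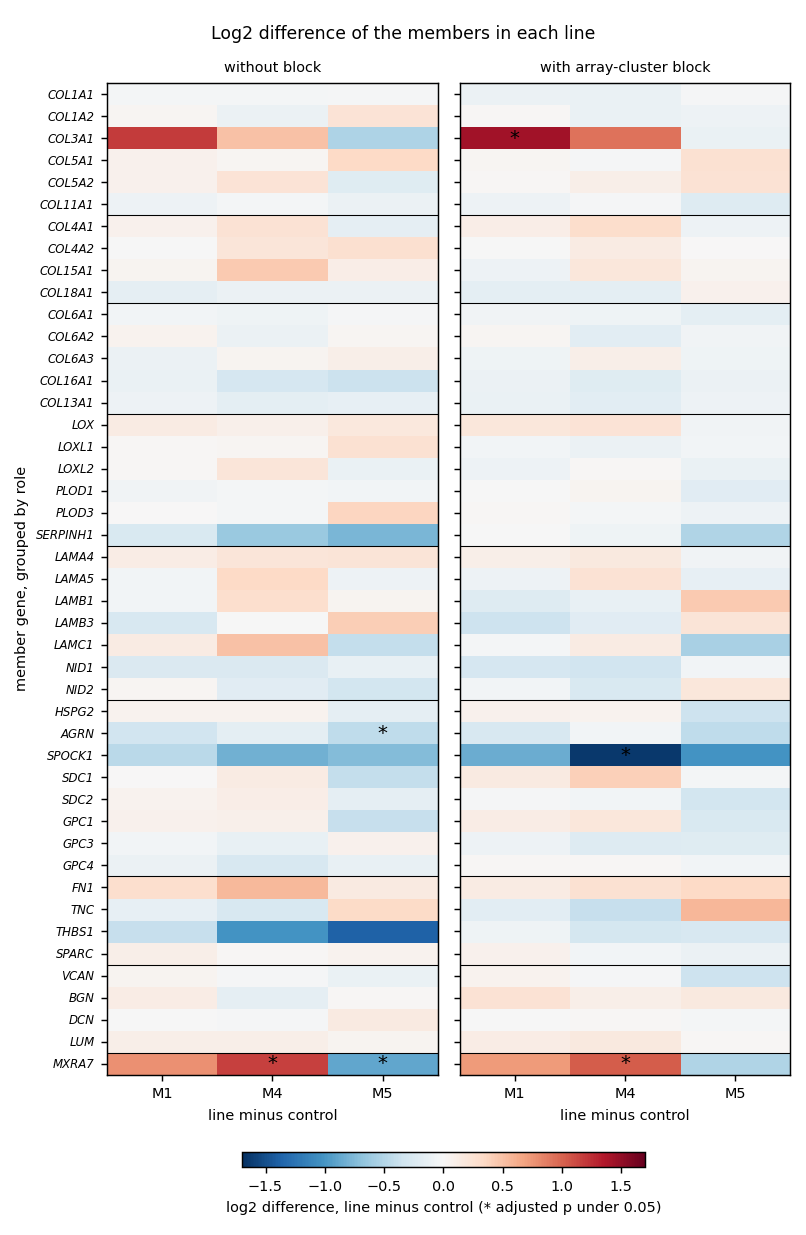
Log2 difference from controls of the 45 measured members, in columns for M1, M4 and M5, without a block on the left and with the array-cluster block on the right. Rows are grouped by role and stars mark an adjusted p under 0.05. Most cells are pale; COL3A1, SPOCK1, THBS1 and MXRA7 hold the strongest colours, and THBS1 is pale once the block is in the fit.

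MXRA7, a transmembrane protein named for its link to matrix remodelling and otherwise little characterised, was higher in M4 and lower in M5 than in controls. Its signals were 8.74, 8.56 and 8.85 in M1, 9.00, 9.18 and 9.12 in M4, and 7.45, 7.13 and 6.59 in M5, against 8.10 and 7.94 in controls with luciferase and 7.80 and 7.91 in controls without it. The M1 and M4 arrays all lay above the 4 control arrays and the M5 arrays all below them. M4 exceeded controls by 1.16 ± 0.17 (SE; limma adjusted p = 0.0313), a 2.24-fold higher signal, and by 1.03 with the block (adjusted p = 0.0308). The M1 difference of 0.78 was not called (adjusted p = 0.431; 0.0564 with the block). M5 was lower than controls by a log2 difference of -0.88 ± 0.17 (adjusted p = 0.0177). With the block the M5 difference was -0.51 and not called (adjusted p = 0.216), and within cluster 2, where M5 has replicate 1 alone, it was -0.47.

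In MXRA7 M5 stood further from M4 and from M1 than any line stood from controls. M5 was 4.12-fold lower than M4, with a log2 difference of -2.04 ± 0.18 (adjusted p = 0.000437; -1.54 and adjusted p = 0.00793 with the block). It was 3.16-fold lower than M1, at -1.66 ± 0.18 (adjusted p = 0.00119; -1.22 and adjusted p = 0.015 with the block). Leaving out any 1 of the 13 arrays kept both calls, with adjusted p of at most 0.00426 for M5 against M4 and 0.0105 for M5 against M1. The calls against controls were less firm. The M4 call was lost without any 1 of the 4 control arrays, of the 3 M4 arrays or of M1 replicate 1 (adjusted p of 0.0528 to 0.269). The M5 call was lost without any 1 control array, M5 replicate 2 or M5 replicate 3 (0.0521 to 0.0723). The gene lies at chr17:76672551-76710965 (GRCh38.p14) and 1 probe set names it.

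Between lines, 3 of 45 members were called for M5 against M1 (MXRA7, COL3A1 and LAMB3), beside 1.23% of all genes, and 3 with the block (MXRA7, COL3A1 and TNC), beside 1.61%. For M5 against M4 MXRA7 and LAMC1 were called, beside 2.16% of genes, and these and TNC with the block, beside 1.85%. For M4 against M1 0 members were called, beside 0.0251% of genes, with 3 members at an unadjusted p under 0.05, beside 2.83%, and again 0 with the block, beside 0.117%. An unadjusted p under 0.05 was reached by 8 members for M5 against M1, beside 14.8% of genes, and by 15 for M5 against M4, beside 15.1%. Between controls with and without luciferase 0 members were called in either fit, beside 0% of genes without the block and 0.0167% with it. No member had an unadjusted p under 0.05 there without the block, beside 1.29% of genes.

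Among the fibrillar collagens, COL3A1, the chain of type III collagen found beside type I in soft tissues, was the one member called, in M5 against M1. Its signals were 10.93, 10.10 and 9.80 in M1, 10.15, 9.34 and 9.29 in M4, and 9.12, 8.40 and 8.16 in M5, against 9.05 and 9.43 in controls with luciferase and 9.12 and 8.75 in controls without it. The M1 arrays all lay above the controls, while the M4 and M5 arrays overlapped them. M5 was 3.29-fold lower than M1, at -1.72 ± 0.32 (adjusted p = 0.0226; -1.54 and 0.0227 with the block). This call was lost without M1 replicate 1 or 2 or M5 replicate 2 or 3 (adjusted p of 0.0661 to 0.133), and without cluster 4 the difference was -1.16 (adjusted p = 0.3). M1 exceeded controls by 1.19 ± 0.30 (adjusted p = 0.706), and by 1.43 ± 0.17 with the block (adjusted p = 0.00521). The 2 probe sets next in brightness gave M1 differences from controls of 1.21 and 1.79, and the dimmest, below the lower quartile on all arrays, gave 0.07.

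The neighbouring COL5A2, a chain of the type V collagen that nucleates fibrils, was not called. COL3A1 lies at chr2:188974373-189012746 and COL5A2 at chr2:189031898-189441111. COL5A2 had 11.43, 11.24 and 11.57 in M1, 11.53, 11.57 and 11.61 in M4, and 11.64, 10.84 and 10.92 in M5, against 11.39 and 11.42 in controls with luciferase and 11.24 and 11.31 in controls without it. Its M1 difference was 0.07, and its 2 lowest arrays are those of cluster 4. The M4 arrays all lay above the controls, with a difference of 0.23, and 0.10 with the block. The second COL5A2 probe set gave M4 differences of 0.26 without and 0.14 with the block. COL1A1 and COL1A2, the chains of type I collagen, with COL5A1 and COL11A1 differed from controls by -0.10 to 0.34 over the 3 lines, and none was called.

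**Figure D2:**
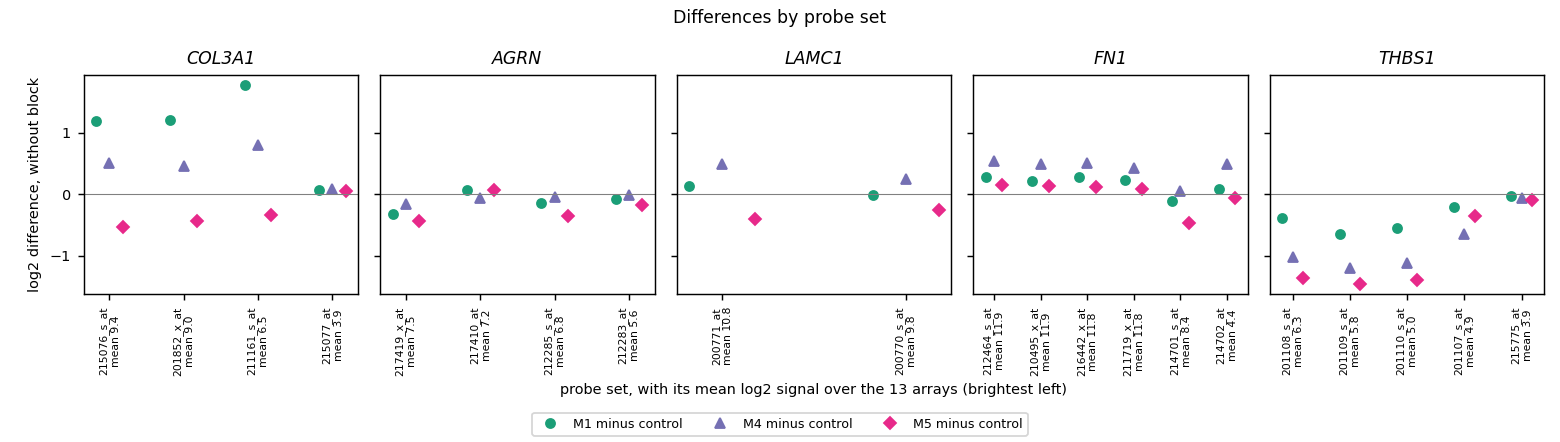
Log2 difference from controls, without a block, for every probe set naming COL3A1, AGRN, LAMC1, FN1 or THBS1 alone, with the brightest on the left of each panel and points for M1, M4 and M5. The 3 brighter COL3A1 probe sets give M1 differences of 1.19, 1.21 and 1.79; those of AGRN in M5 run from -0.43 to 0.07.

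Of the basement membrane and multiplexin collagens 0 of 4 were called in any comparison. COL4A1 had 6.68, 6.01 and 6.10 in M1, 6.48, 6.54 and 6.27 in M4, and 6.19, 5.83 and 6.06 in M5, against 6.12 and 6.34 in controls with luciferase and 6.27 and 6.01 in controls without it. COL4A2 had 7.90, 7.29 and 7.59 in M1, 8.01, 7.77 and 7.66 in M4, and 7.87, 7.90 and 7.84 in M5, against 7.33 and 7.83 in controls with luciferase and 7.42 and 7.83 in controls without it. In M5 the probe sets used lay on opposite sides of the controls, with differences of -0.16 for COL4A1 and 0.27 for COL4A2, neither called. With the block these were -0.08 and 0.01. The dimmer COL4A1 probe set gave 0.19 in M5, on the same side as both COL4A2 probe sets (0.27 and 0.26). COL15A1 and COL18A1, the source of endostatin, differed by -0.15 to 0.45. COL18A1 had 5.07, 4.97 and 5.07 in M1, below all controls at 5.10 to 5.39, a difference of -0.15 that was not called (adjusted p = 1). COL6A1, COL6A2 and COL6A3 of the beaded filaments, COL16A1 and the transmembrane COL13A1 differed by -0.36 to 0.10, and 0 of these 5 were called.

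The collagen-processing members include LOX, LOXL1 and LOXL2, which crosslink fibrils, the lysyl hydroxylases PLOD1 and PLOD3, and SERPINH1, the collagen chaperone HSP47. None of the 6 was called. SERPINH1 had 7.70, 7.97 and 7.02 in M1, 7.58, 7.09 and 6.92 in M4, and 7.18, 6.69 and 7.26 in M5, against 8.0 and 7.67 in controls with luciferase and 7.93 and 7.70 in controls without it. Every M4 and M5 array lay below every control, yet the M5 difference of -0.78 ± 0.23 was not called (adjusted p = 0.0976), nor was the M5 difference of -0.51 with the block (adjusted p = 0.217). Within cluster 2 M5 also stood at -0.51 from controls. The M4 difference was -0.63 without and -0.07 with the block. PLOD3 had 8.94 to 9.04 in M1, 8.87 to 9.06 in M4 and 9.01 to 9.68 in M5, against 8.77 to 9.24 in controls. Its 2 highest arrays were those of cluster 4, and its M5 difference was 0.36 without and -0.09 with the block. The other 4 differed from controls by -0.11 to 0.26.

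LAMC1, the gamma-1 chain of most laminins, was lower in M5 than in M4, while LAMB3, the beta-3 chain of the epithelial laminin-332, was higher in M5 than in M1. LAMC1 (chr1:183023420-183145592) had 10.66, 10.63 and 11.26 in M1, 10.95, 11.41 and 11.27 in M4, and 10.20, 10.40 and 10.33 in M5, against 10.91 and 10.78 in controls with luciferase and 10.46 and 10.71 in controls without it. M5 lay below all 4 controls and M4 above all 4, although neither difference from controls was called. M5 was 1.87-fold lower than M4, at -0.90 ± 0.17 (adjusted p = 0.0181; -0.69 and 0.0459 with the block). Its second probe set gave -0.51, and the 2 arrays of these lines in cluster 2 gave -0.75. The call was lost without M4 replicate 2, M4 replicate 3 or M5 replicate 3 (adjusted p of 0.0743 to 0.115).

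LAMB3 (chr1:209614870-209652425) had 4.81, 4.59 and 4.71 in M1, 4.69, 5.09 and 5.14 in M4, and 5.27, 5.29 and 5.63 in M5, against 4.79 and 5.05 in controls with luciferase and 5.01 and 5.08 in controls without it. M5 lay above every other array. M5 exceeded M1 by 0.69 ± 0.15 (adjusted p = 0.0449), and by 0.58 with the block, not called (adjusted p = 0.151). Leaving out 1 array ended the call for 11 of 13 arrays, and it was kept without M4 replicate 1 or M5 replicate 1.

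LAMB1, the beta-1 chain that pairs with LAMC1, was not called in any comparison. It had 8.22, 8.05 and 8.88 in M1, 8.60, 8.67 and 8.86 in M4, and 9.03, 8.40 and 7.97 in M5, against 8.30 and 8.58 in controls with luciferase and 8.22 and 8.61 in controls without it. The groups overlapped throughout, and its M5 difference was 0.04 without and 0.45 with the block, called in neither. LAMA4, LAMA5 and the nidogens NID1 and NID2 differed from controls by -0.31 to 0.34, and none was called. LAMA5, the alpha-5 chain, had 8.27, 8.43 and 8.18 in M4, above all controls at 7.83 to 8.07 (difference 0.34, adjusted p = 0.557; 0.24 with the block). NID1 had 3.67, 3.71 and 3.64 in M1, below all controls at 3.77 to 4.05, at a signal under the lower quartile (difference -0.24, adjusted p = 1).

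**Figure D3:**
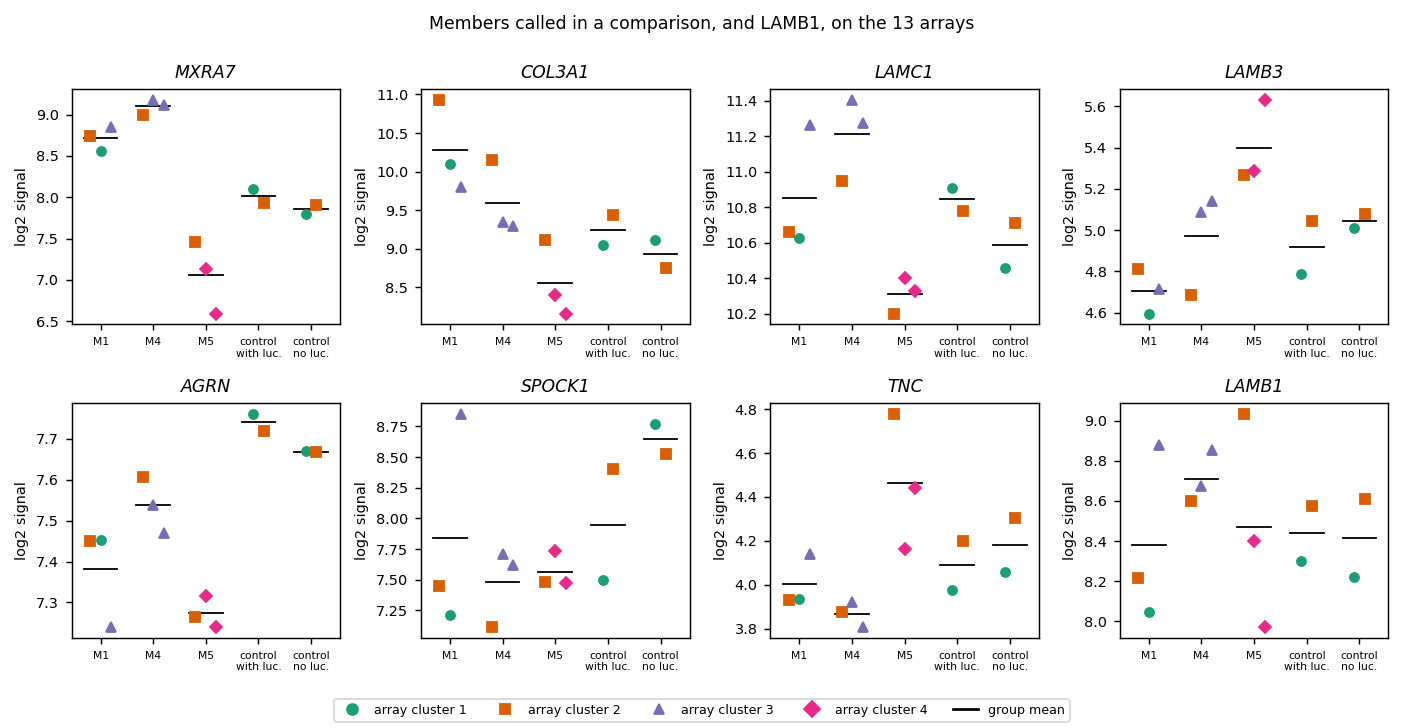
Log2 signal of the 7 members called in a comparison, and of LAMB1, on each array; columns are M1, M4, M5, controls with luciferase and controls without, lines are group means, and colours and shapes are the array clusters. MXRA7 in M4 lies at 9.00 to 9.18 and in M5 at 6.59 to 7.45, on either side of the controls at 7.80 to 8.10.

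Among the heparan sulphate proteoglycans, AGRN, which codes for the basement membrane proteoglycan agrin, was lower in M5 than in controls. Its signals were 7.45, 7.45 and 7.24 in M1, 7.61, 7.54 and 7.47 in M4, and 7.27, 7.32 and 7.24 in M5, against 7.76 and 7.72 in controls with luciferase and 7.67 and 7.67 in controls without it. All 9 arrays of the metastatic lines lay below all 4 controls, which 0.602% of genes did in one direction or the other. The M5 difference was -0.43 ± 0.09 (adjusted p = 0.0292), and -0.43 with the block, not called (adjusted p = 0.0831). The call was also lost without any 1 control array, M4 replicate 2, M5 replicate 2 or M5 replicate 3 (0.0538 to 0.125). The probe set used is of a kind that can also bind other transcripts, and the other 3 gave M5 differences of 0.07, -0.35 and -0.17. AGRN lies at chr1:1020120-1056116.

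SPOCK1, which codes for the secreted proteoglycan testican-1, was lower in M4 and in the mean of the lines once the array clusters were in the fit. It had 7.45, 7.21 and 8.85 in M1, 7.11, 7.71 and 7.62 in M4, and 7.48, 7.73 and 7.47 in M5, against 7.50 and 8.40 in controls with luciferase and 8.77 and 8.52 in controls without it. M1 replicate 3 stood above all other line arrays and the first control with luciferase stood among them, so the groups overlapped. Without the block the difference was -0.82 in M4 (adjusted p = 0.658) and -0.67 in the mean of the lines (adjusted p = 0.539). With it, the difference was -1.64 ± 0.25 in M4 (adjusted p = 0.0308) and -1.16 ± 0.19 in the mean of the lines (adjusted p = 0.0226). Within cluster 2 the differences from controls were -1.01 (M1), -1.35 (M4) and -0.98 (M5). In cluster 1 that of M1 was -0.92. Cluster 3 holds no control, and M4 replicates 2 and 3 are set there against M1 replicate 3 alone, the high array. M4 stood at -1.19 from it, against -0.34 from M1 within cluster 2. SPOCK1 lies at chr5:136975298-137499326 and 1 probe set names it.

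Of the surface and other heparan sulphate proteoglycans none was called. The glypican GPC1 had 9.66, 9.42 and 9.27 in M1, 9.51, 9.49 and 9.39 in M4, and 9.12, 8.79 and 9.05 in M5, against 9.49 and 9.44 in controls with luciferase and 9.31 and 9.26 in controls without it. M5 lay below every other array, with a difference from controls of -0.39 ± 0.11 (adjusted p = 0.1), and -0.26 with the block (adjusted p = 0.438). The syndecan SDC1 had 8.34 in M5 replicate 1 and 7.48 and 7.85 in the M5 arrays of cluster 4, against 8.09 to 8.51 in controls, and its M5 difference was -0.40 without and -0.03 with the block. The second SDC1 probe set gave -0.63 without and -0.28 with the block. Its M5 arrays, at 7.58, 6.45 and 7.35, lay below the controls at 7.62 to 7.92. HSPG2, which codes for perlecan, with SDC2, GPC3 and GPC4 differed from controls by -0.27 to 0.11.

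In THBS1 and FN1, 2 of the matrix glycoproteins, the arrays of cluster 3 lay together across M1 and M4. THBS1, thrombospondin-1, an activator of latent TGF-beta, had 6.83, 7.08 and 5.82 in M1, 6.29, 5.76 and 5.79 in M4, and 6.44, 4.60 and 5.75 in M5, against 7.0 and 6.64 in controls with luciferase and 7.52 and 6.70 in controls without it. All M4 and M5 arrays lay below all controls. The differences of -1.02 in M4 (adjusted p = 0.619) and -1.37 in M5 (adjusted p = 0.0948) were not called, and with the block they were -0.30 and -0.27. FN1, fibronectin, had 11.75 to 12.26 in M1, 11.93 to 12.38 in M4 and 11.70 to 12.00 in M5, against 11.46 to 11.81 in controls. M4 lay above all controls, by 0.55 (adjusted p = 0.354) and by 0.26 with the block. In cluster 3 FN1 had 12.26 in M1 and 12.38 and 12.35 in M4. Within cluster 2 its differences from controls were 0.23 (M1), 0.31 (M4) and 0.38 (M5). In cluster 1 that of M1 was 0.03.

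TNC, which codes for the de-adhesive glycoprotein tenascin-C, was called in M5 against both other lines with the block. It had 3.93, 3.93 and 4.14 in M1, 3.88, 3.92 and 3.80 in M4, and 4.78, 4.16 and 4.44 in M5, against 3.98 and 4.20 in controls with luciferase and 4.06 and 4.30 in controls without it. Its signal was below the lower quartile on 12 of 13 arrays, all but M5 replicate 1. The M5 estimate with the block rests on that array. A second TNC probe set, below the lower quartile on all 13 arrays, gave M5 differences of 0.14 from M4 and 0.20 from M1 with the block. With the block M5 exceeded M4 by 0.95 ± 0.15 (adjusted p = 0.0149) and M1 by 0.74 ± 0.15 (adjusted p = 0.0366), and without it by 0.60 (adjusted p = 0.0624) and 0.46 (0.172). Without the block the M5 difference from M4 was called where M5 replicate 1 or M5 replicate 2 was left out (adjusted p of 0.0306 to 0.0327). SPARC, the bone glycoprotein osteonectin, differed from controls by 0.02 to 0.10. The hyalectan VCAN, which codes for versican, and the small leucine-rich BGN, DCN and LUM differed by -0.16 to 0.16, with 0 of 4 called. LUM, lumican, had 3.21, 3.36 and 3.21 in M1, above all controls at 3.12 to 3.20, again under the lower quartile (difference 0.10, adjusted p = 1).

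The array clusters moved with many of these values. Of 45 members, 13 had a called cluster term, beside 36.4% of all genes: COL1A1, COL3A1, COL5A2, COL4A2, LOXL2, PLOD3, SERPINH1, LAMB1, LAMC1, SPOCK1, SDC1, FN1 and THBS1. Cluster 4, which holds M5 arrays alone, also had a narrower spread of signals, with lower quartiles of 4.66 and 4.70 and upper quartiles of 7.86 and 7.95, against 4.41 to 4.56 and 7.99 to 8.12 on the other arrays. Leaving out M5 replicate 1, so that M5 lay in cluster 4 alone, gave 11 called members for M5 against controls (25.6% of genes), 10 for M5 against M1 (19.8%) and 12 for M5 against M4 (20.4%). Without it, MXRA7 in M1 and AGRN in the mean of the lines were called too. The 11 were COL1A2, LOXL1, PLOD3 and LAMB3, higher in M5, and COL5A2, SERPINH1, AGRN, SDC1, GPC1, THBS1 and MXRA7, lower. In cluster 4 line and cluster cannot be told apart.

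**Figure D4:**
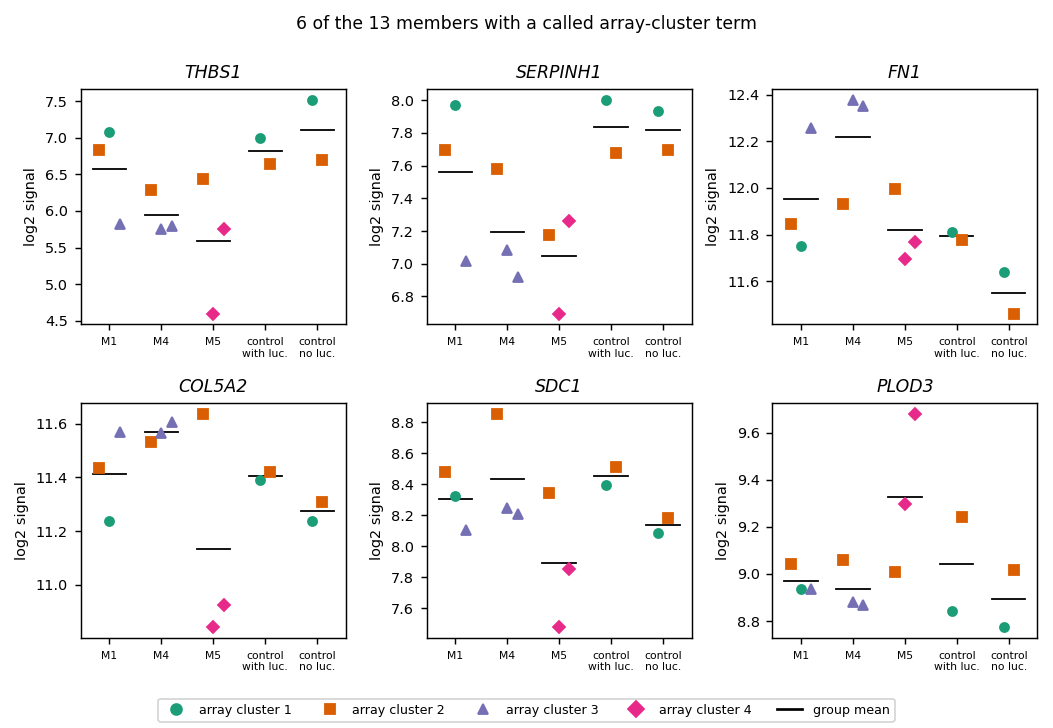
Log2 signal of 6 of the 13 members with a called array-cluster term, on each array, by group and with the array clusters in colour and shape. For THBS1 and SERPINH1 the M1 array of cluster 3 lies at 5.82 and 7.02, beside the M4 arrays of that cluster and below the other M1 arrays; for COL5A2 and SDC1 the cluster 4 arrays lie below the M5 array of cluster 2.

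Among the other genes of these pathways, calls without the block were in comparisons of M5, as were most calls over all genes (2.37% in M5 against controls, beside 0.0251% in M1 and 0.092% in M4). In that fit 0 of 17 other collagens, 0 of 17 other genes of collagen synthesis and 0 of 9 other laminin and basement membrane genes were called in any comparison. Of 37 genes listed with other matrix glycoproteins and matricellular proteins, FBN2 and FNDC3B were lower in M5 than in controls. FBN2, fibrillin-2 of the microfibrils, had 4.78, 4.46 and 4.45 in M5, against 7.69 and 8.55 in controls with luciferase and 8.59 and 9.55 in controls without it. Its difference was -4.03 ± 0.41 (adjusted p = 0.000597; -4.12 with the block), and it was also called lower in M5 than in M1 and M4. FNDC3B, a fibronectin type III domain protein, was lower in M5 than in controls at -1.05 (adjusted p = 0.0186; -1.03 with the block). Of 43 other proteoglycan and sugar-chain genes, DSE, which makes dermatan sulphate, was called in M5 against M4, at -1.08 (adjusted p = 0.0324; -0.47 with the block).

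Of 20 genes listed with collagen and laminin receptors, ITGA2, the alpha-2 integrin that binds collagen, was lower in M5 than in controls. Its difference was -0.58 (adjusted p = 0.0203), and -0.38 with the block. The thrombospondin receptor CD36 was higher in M5 than in controls by 1.90 (adjusted p = 0.0232), and with the block by 3.16. That block estimate rests on M5 replicate 1, at 7.35, against 5.40 and 5.24 on the other M5 arrays and 3.94 to 4.19 in controls. With the block CD36 was also called in M1, at 0.99 (adjusted p = 0.00315). It was called too in the mean of the lines, at 1.40 (adjusted p = 5.7e-05), which includes that M5 estimate. Without the block these were 1.09 (adjusted p = 1) and 1.08 (adjusted p = 0.323). ITGB5 was lower in M5 than in M4, at -1.08 (adjusted p = 0.00434; -0.67 with the block), and the laminin-binding ITGA3 higher by 0.54 (adjusted p = 0.0433; 0.70 with the block). Of 26 proteases and inhibitors, MMP9, a gelatinase, was higher in M5 than in controls by 0.57 (adjusted p = 0.0407; 0.40 with the block), and PLAU, urokinase, was lower in M5 than in M4, at -1.06 (adjusted p = 0.032; -0.67 with the block). Of 16 TGF-beta genes, SMAD3 was higher in M5 than in controls by 1.18 (adjusted p = 0.0374; 0.73 with the block), and TGFB2 lower in M5 than in M4, at -1.04 (adjusted p = 0.0236; -0.44 with the block).

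With the block the calls for DSE, ITGA2, MMP9, PLAU, SMAD3 and TGFB2 were lost. Added with it were 8 of the 185 list genes in M5 against controls, where the M5 estimate rests on M5 replicate 1. Over all genes, 1.98% were called in that comparison with the block and 2.37% without it. CCN1 stood at -1.44 with the block and -0.55 without, CCN2 at -1.27 and -0.65, and TGFBR2 at -1.07 and -0.59. P3H2 stood at -0.99 with the block and -0.51 without, and LAMB2 at -0.74 and -0.23. HS3ST3A1 stood at 0.75 with the block and 0.14 without, and UGDH at 0.55 and 0.14. SMAD6 turned its sign, at 0.74 with the block and -0.05 without. In the mean of the lines the block fit also called FBN2 at -2.31, CCN1, CCN2, TGFBR2 and P3H2, all lower, and EXTL3, higher at 0.44. That fit called 0.527% of all genes in the mean of the lines. In M1, where it called 0.234% of all genes, it called FBN2, at -2.06 (adjusted p = 0.0148). Without the block this was -1.67 (adjusted p = 0.652). FBN2 in M4 was 8.60, 8.93 and 8.69, between the lowest and highest control, and was called against controls in neither fit. Within cluster 2 it was 8.60 in M4, against 9.55 and 8.55 in controls.

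FNDC3B, ITGB5, LAMB2, P3H2 and TGFBR2 lie on chromosome 3. The median difference of the 655 chromosome 3 genes from controls in M5 was -0.287, and -0.216 with the block, against 0.0308 and -0.0171 over all genes. None of the 45 members lies on that chromosome, and its part in these list genes was not tested.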

How the data were processed

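The deposited table holds log2 signals of 22277 probe sets on 13 arrays, which the authors computed by RMA according to notes of the submitters on processing (per the labels); its version is not given in the sources used here. Scanned images were not used here, and the number of arrays limits the precision. Of the probe sets, 62 are Affymetrix controls, 19064 name 1 gene, 1043 several and 2108 none; 1 probe set per gene gave 11963 genes, with no filter on low signal. Coordinates and promoters are from RefSeq GRCh38.p14, which had a promoter entry for 36 of the 48 members.

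Groups came from the labels. Differences were fitted with limma 3.58.1 in R 4.3.3 (lmFit and eBayes, 5 group means, with the 2 kinds of control averaged), adjusted over all genes at 0.05; the procedure was tested on simulated data. Array clusters are 4 Ward clusters of the control probe sets. Replicate numbers did not pair the arrays: 7 of 23 pairs sharing a number had deviations correlated above 0.1, against 14 of 15 pairs sharing a cluster. Alternatives were the cluster and replicate blocks, other probe set rules, quantile normalization, other priors and thresholds, each kind of control alone, the compared arrays alone and each array left out.

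The members and gene lists were chosen with earlier results of these data known. Called members are named with their values, as are partner chains and members whose arrays in a line did not overlap the controls; others, including those apart only between lines, are given by range, and up to 4 called genes from each list. Markers of osteoblasts and osteoclasts had 0 of 5 and 0 of 4 measured genes above the median on all arrays, and lung lineage markers 1 of 7 (SFTPC).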

Additional observations from a re-analysis of the deposited data

Results flagged for a closer look

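For each of 45 members, Dixon's criterion for single arrays was applied to the 4 controls and to the 9 line arrays. Chance meets it in about 1 in 20 groups. By it, 4 member values stood apart from the rest of their group, a count near that chance rate. SPOCK1 was 8.85 in M1 replicate 3, against 7.11 to 7.73 on the other 8 arrays of the metastatic lines. VCAN was 3.54 in M5 replicate 1, against 3.79 to 3.96 on the other line arrays. COL18A1 was 5.39 in the second control without luciferase, against 5.10 to 5.14 in the other controls, and SPARC was 3.96 on that same array, against 3.67 to 3.70.

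Without the block the lines differed from each other, by the direct test between them, in 4 members. Over all genes, 2.16% were called for M5 against M4 and 1.23% for M5 against M1. The log2 difference of M5 from M4 was -2.04 in MXRA7 and -0.90 in LAMC1, both lower in M5. The log2 difference of M5 from M1 was -1.66 in MXRA7 and -1.72 in COL3A1, both lower in M5, and 0.69 in LAMB3, higher in M5. LAMB3 was not called with the block. Of 13 fits that each left out 1 array, 11 lost the LAMB3 call, 4 that of COL3A1 and 3 that of LAMC1.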

How the results depend on the processing

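Without a block, 0 members were called for the mean of the lines (0.0251% of all genes) and 0 for M1 (0.0251%) against controls. There were 1 for M4 (0.092%) and 2 for M5 (2.37%) against controls. Between lines there were 3 for M5 against M1 (1.23%) and 2 for M5 against M4 (2.16%). With the array-cluster block the counts against controls were 1 for the mean of the lines (0.527% of all genes) and 1 for M1 (0.234%). They were 2 for M4 (0.15%) and 0 for M5 (1.98%). With the replicate number as a block, which does not pair these arrays, they were 0 for M4 and 0 for M5. Fits on the compared arrays alone gave 0 for M5 against controls, 0 for M5 against M1 and 1 for M5 against M4. For M5 against controls an intensity trend with a robust prior, the probe set of largest variance, the mean of the probe sets and quantile normalization each gave 1. At an adjusted p under 0.01 the counts were 0 for M4, 0 for M5, 1 for M5 against M1 and 1 for M5 against M4. Each kind of control alone gave 0 for M4 and 0 for M5. Without array cluster 4, chosen after seeing the data, M1 against controls gave 1, M5 against controls 0 and M5 against M1 1. Leaving out 1 array at a time gave 0 to 1 for the mean of the lines, 0 to 1 for M1 and 0 to 1 for M4. It gave 0 to 11 for M5 and 0 to 0 for M4 against M1. For M5 it gave 1 to 10 against M1 and 1 to 12 against M4. The highest M5 counts came without M5 replicate 1, where 25.6%, 19.8% and 20.4% of all genes were called. Shares of all genes are not set beside the counts of the other settings. A kind of control left with 1 array was assumed to vary like the other groups. MXRA7 was called in 24 of 24 alternatives for M5 against M4 and 23 of 24 for M5 against M1, LAMC1 in 18 of 24 and COL3A1 in 17 of 24. AGRN in M5 reversed to 0.07066 with the probe set of largest variance, which is another probe set. The cause of the other changes was not tested.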
